A study of Homo sapiens with 15 samples.

Results

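Genes of secreted inflammatory signalling were followed in HT-1080 cells, a line from a human fibrosarcoma: the cytokine genes IL6, IL11, LIF, IL1A, IL1B, IL18 and IL33, and IL6ST, the gene of a receptor chain. They are 8 of the 60670 genes counted and were chosen by name, as interleukins of the senescence-associated secretory phenotype and cytokines of the IL-6 family. Each was found in the count table by its Ensembl identifier. RNA sequencing libraries were made from 5 groups of 3 libraries, which the labels call biological replicates.

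Cycling cells in the vehicle DMSO for 6 h formed the first group. The other 4 groups were senescent cells in which a dominant negative mutant of TRF2, the protein of TERF2 that protects chromosome ends, had been expressed for 6 days. They then received DMSO or 1 uM GNF-7, a kinase inhibitor, for 6 h or 24 h. GCN2 is the kinase named in the title of the series. All groups were of this 1 cell line and were grown in DMEM with tet-free serum at 5% oxygen. The senescent vehicle cells at 6 h are the reference for GNF-7 at 6 h and are also the senescent side of the comparison with cycling cells, so those 2 comparisons share libraries. There was no cycling group at 24 h and none with GNF-7. Nothing in the sources used here says whether the replicates were separate cultures, so p-values measure the spread between these libraries.

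Senescent cells stop dividing and secrete a mixture of cytokines, growth factors and proteases, called the senescence-associated secretory phenotype. IL-6, IL-11 and LIF each bind a different receptor chain and signal with the shared chain gp130, made from IL6ST, to JAK kinases and the factor STAT3. IL-1 alpha and IL-1 beta bind the receptor IL1R1 with its partner IL1RAP and act through MYD88, IRAK kinases and NF-kB, and IL-1 alpha bound at the cell surface is known as an upstream driver of IL-6 secretion in senescent fibroblasts. IL-18 and IL-33 are further cytokines of the IL-1 family with their own receptors.

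The sequence before the start site is shown for IL6, IL11, IL1A and IL1B, which are ligands with different patterns over the groups. Each run is 250 bases long, reads 5′ to 3′ on the strand of its gene, ends at the base before the RefSeq start site, and comes from RefSeq on GRCh38.p14. Of the 8 genes, 6 matched an entry, and LIF and IL18 did not. Capitals mark matches on either strand to motifs of factors known for cytokine genes: NF-kB (GGG, any 2 bases, then TTTCC), AP-1 (TGANTCA), C/EBP (TTNCNNAA), STAT (TTCNNNGAA), a composite of C/EBP and ATF factors (TGATGNAA) and the core of the cAMP response element (TGACGT).
IL6, chr7:22726950-22727199, plus strand: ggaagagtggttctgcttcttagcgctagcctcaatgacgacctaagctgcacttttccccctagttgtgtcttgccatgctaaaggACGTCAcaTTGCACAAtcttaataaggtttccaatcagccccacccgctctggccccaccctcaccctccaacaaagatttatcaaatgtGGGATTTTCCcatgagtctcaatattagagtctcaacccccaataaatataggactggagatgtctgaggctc
IL11, chr19:55370464-55370713, minus strand: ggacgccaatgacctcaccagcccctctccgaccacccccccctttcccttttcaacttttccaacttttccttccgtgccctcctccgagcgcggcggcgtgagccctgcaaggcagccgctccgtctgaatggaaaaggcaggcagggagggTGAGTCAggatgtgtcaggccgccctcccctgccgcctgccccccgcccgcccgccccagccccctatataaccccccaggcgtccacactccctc
IL1A, chr2:112784494-112784743, minus strand, first of 2 start sites: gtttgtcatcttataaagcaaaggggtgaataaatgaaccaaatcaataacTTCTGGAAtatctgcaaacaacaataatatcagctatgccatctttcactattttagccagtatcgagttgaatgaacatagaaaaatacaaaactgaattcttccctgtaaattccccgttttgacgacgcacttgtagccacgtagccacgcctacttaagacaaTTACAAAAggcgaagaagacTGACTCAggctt
IL1B, chr2:112836780-112837029, minus strand: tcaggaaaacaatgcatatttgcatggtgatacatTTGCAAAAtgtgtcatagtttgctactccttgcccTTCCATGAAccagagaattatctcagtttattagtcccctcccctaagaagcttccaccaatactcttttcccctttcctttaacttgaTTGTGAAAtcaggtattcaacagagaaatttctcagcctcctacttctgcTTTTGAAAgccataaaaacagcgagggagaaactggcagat

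Positions are given from the start site, which lies 1 base after the end of each run. IL6 holds the NF-kB motif (first base at -73), a C/EBP motif (-155) and the cAMP element core on the other strand (-163). IL11 holds 1 AP-1 motif (-96), and IL1A holds an AP-1 motif (-12) and 2 C/EBP motifs (-199 and -32). IL1B holds 3 C/EBP motifs (-215, -91 and -41) and a STAT motif (-180). Of the 35116 RefSeq promoters, read over the same 250 bases, 1.73% hold the NF-kB motif, 6.57% AP-1, 33.2% C/EBP, 6.57% STAT, 3.14% the composite and 7.1% the cAMP element core. A match describes the letters and is not evidence of binding. The C/EBP motif is common, and the composite motif was not in these windows for any of the 4 genes.

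Library totals ranged from 25991007 to 32323393 counts, with 22093 to 26774 genes detected. TERF2, checked first, was at 58.2 ± 3.65 CPM (counts scaled to a common library size with TMM; SD, n = 3) in cycling libraries, while senescent vehicle libraries at 6 h had 287 ± 8.17 CPM. The counts do not separate the expressed mutant from the endogenous transcript. CDKN1A, the cell cycle inhibitor p21, went from 186 ± 2.54 to 501 ± 8.96 CPM, and MKI67, a proliferation marker, from 509 ± 24.3 to 149 ± 3.35 CPM. Mesenchymal markers, 9 genes, summed to 8678 to 8929 CPM in cycling libraries, to 9746 to 10630 in vehicle and 8415 to 9251 with GNF-7 at 6 h, and to 9992 to 11110 in vehicle and 6048 to 6401 with GNF-7 at 24 h. Of these, 6 in GNF-7 at 24 h and 7 in each other group had 10 or more counts in every library, with THY1 at 0 in all and S100A4 and COL1A2 low. Leukocyte markers, 8 genes, summed to 3.24 to 5.86 CPM with TYROBP at 0 and PTPRC at no more than 7 counts. Among them CSF1R had 65 to 101 counts a library, ITGAM 2 to 55 and LYZ 1 to 18. Epithelial markers, 7 genes, summed to 0.894 to 2.23 CPM in 4 groups and to 3.89 to 5.54 CPM in GNF-7 at 24 h, with GRHL2 at 0 in every library and ESRP1 at up to 3.01 CPM. The mesenchymal sum was thus lowest, and the epithelial sum highest, in the group in which IL1B was highest and IL6ST lowest, and the part of these markers in the changes with GNF-7 was not tested. Endothelial markers, 5 genes, summed to 1.30 to 3.14 CPM. Mitochondrial transcripts took a mean of 4.32% of counts in the cycling group, then 11.7% (vehicle) and 14.1% (GNF-7) at 6 h, and 16.9% and 23.3% at 24 h. With mitochondrial genes left out of the fit, as many of the 8 genes were called in each comparison.

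**Figure D1:**
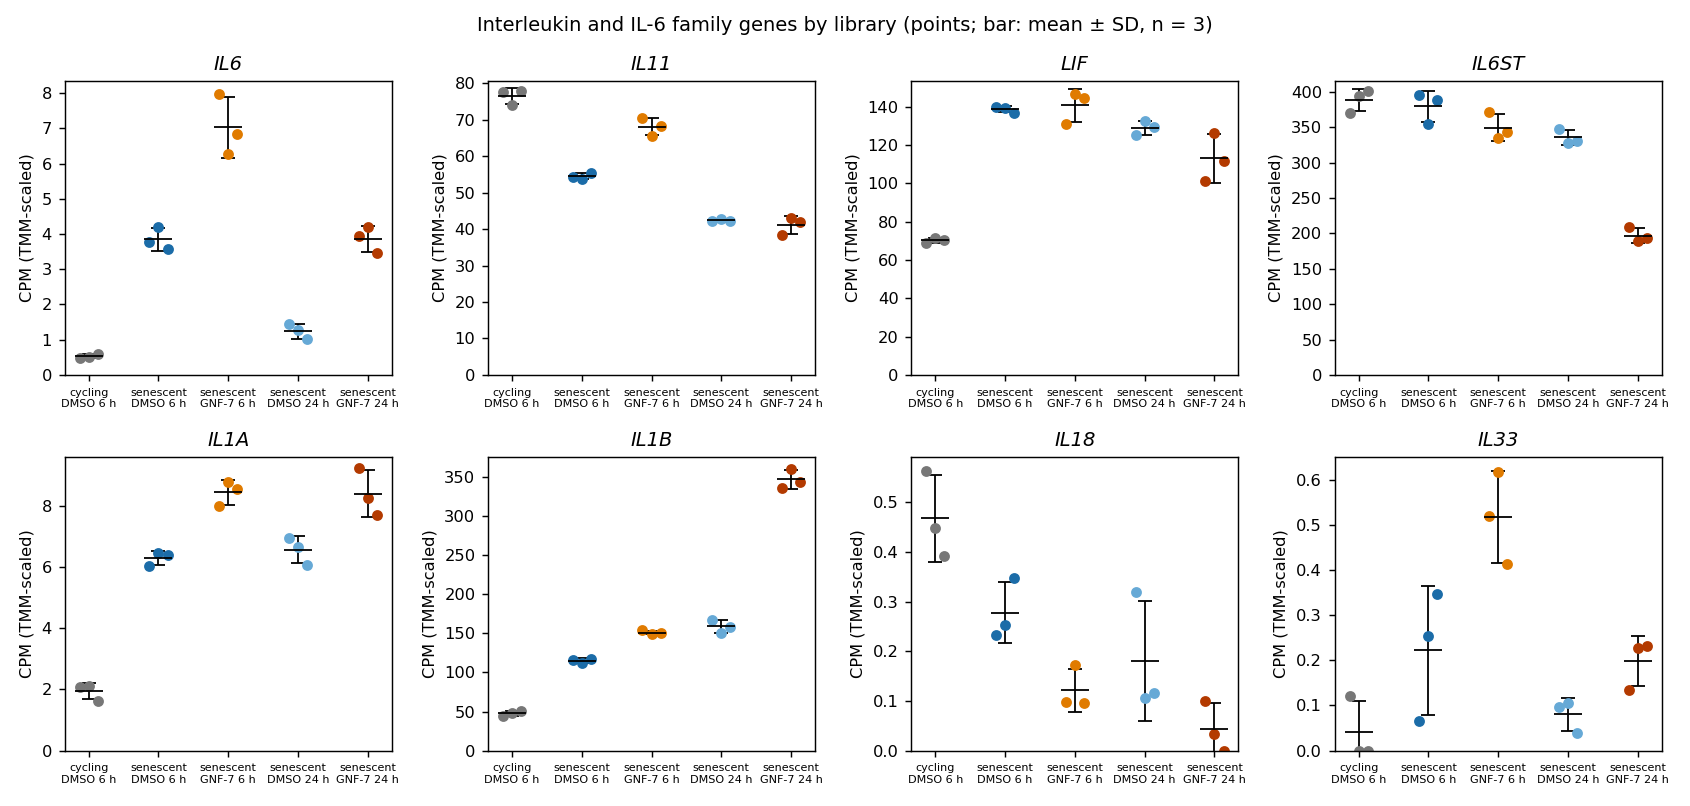
CPM (TMM-scaled, linear axis from 0) of the 8 genes in each of the 15 libraries, by group; points are libraries and bars give the mean ± SD (n = 3). IL6 is highest in GNF-7 at 6 h and IL1B in GNF-7 at 24 h, while IL18 and IL33 stay under 1 CPM in every library.

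Senescent cells had more IL6, LIF, IL1A and IL1B RNA than cycling cells and less IL11 RNA. IL6 was 7.20-fold higher, IL1A 3.25-fold, IL1B 2.41-fold and LIF 1.98-fold, and IL11 was 1.40-fold lower. With GNF-7 for 6 h, IL6, IL11, IL1A and IL1B were higher than in senescent vehicle cells, and IL11 stayed below cycling cells. At 24 h IL6, IL1A and IL1B were higher than in vehicle. LIF and IL6ST were lower with GNF-7 at 24 h. Counts of genes called, here and below, are at an adjusted p under 0.05 from edgeR's quasi-likelihood test with Benjamini-Hochberg adjustment over 18563 genes.

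For senescence, 5 of the 8 genes were called higher and 1 lower, where 35.6% of all genes tested were called higher and 34.4% lower. IL18 and IL33 passed the filter on low counts only through 1 group each, the cycling cells and GNF-7 at 6 h. Their comparisons with those groups thus depend on the filter, and both genes are left out of the next counts. Of the other 6, 4 rose and 1 fell in senescence, with a median log2 fold change of 1.13 against 0.062 over all genes. With GNF-7 at 6 h, 4 of the 6 rose and 1 fell (17.9% and 21.4% of all genes), with a median of 0.36 against 0.007. With GNF-7 at 24 h, 3 rose and 2 fell (29.3% and 29.7% of all genes), with a median of 0.15 against 0.038. In vehicle at 24 h against 6 h, 1 rose and 3 fell (9.26% and 9.29% of all genes), with a median of -0.14 against 0.009. From cycling cells to GNF-7 at 24 h, 4 rose and 2 fell (42.7% and 37.5% of all genes), with a median of 1.40 against 0.125. These comparisons called a large share of all genes, so a call alone does not set a gene apart, and the size of each change is given below. In these bulk libraries, a change in the share of cells that express a gene and a change in RNA per cell cannot be told apart.

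IL6 (ENSG00000136244, GRCh38 chromosome 7, 22725884 to 22732002, plus strand) encodes the ligand that gives its family its name. Cycling libraries had 0.483, 0.516 and 0.588 CPM, from 12 to 18 counts each. Senescent vehicle libraries at 6 h had 3.775, 4.20 and 3.57 CPM. These senescent libraries at 6 h all lay far above the cycling ones, and the log2 fold change was 2.85 (SE 0.231, edgeR adjusted p 3.45e-17).

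After GNF-7 for 6 h IL6 stood at 7.97, 6.27 and 6.84 CPM, all above the vehicle libraries, with a log2 fold change of 0.87 (edgeR adjusted p 1.01e-05, SE 0.161). In vehicle at 24 h it was at 1.44, 1.27 and 1.01 CPM, below every vehicle library at 6 h (log2 fold change -1.62, SE 0.198, edgeR adjusted p 3.11e-09). GNF-7 libraries at 24 h had 3.94, 4.19 and 3.45 CPM. The 24 h GNF-7 and vehicle groups did not overlap, and the difference was 3.09-fold (log2 fold change 1.63, SE 0.198, edgeR adjusted p 1.39e-10).

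The level of IL6 therefore ran, from low to high, cycling, vehicle 24 h, then vehicle 6 h and GNF-7 24 h together, then GNF-7 6 h. Vehicle at 6 h (3.85 ± 0.32 CPM) and GNF-7 at 24 h (3.86 ± 0.375 CPM) overlapped, with a log2 difference of 0.003 (SE 0.169, edgeR adjusted p 0.988). The other neighbours in this order differed, among them vehicle at 24 h and cycling cells (log2 fold change 1.22, SE 0.274, edgeR adjusted p 7.51e-05). GNF-7 cells had 1.82-fold less IL6 at 24 h than at 6 h, and vehicle cells 3.08-fold less. The effect of GNF-7 was larger at 24 h than at 6 h by 0.76 on the log2 scale (SE 0.258, edgeR adjusted p 0.0181), and this difference missed the threshold without vehicle 6 h replicate 2 (0.69, adjusted p 0.0523) or without vehicle 24 h replicate 3 (0.64, adjusted p 0.0736). IL6 overlaps 2 genes on the other strand, AC073072.1 with 2 to 17 counts a library and STEAP1B with 0 to 8. Whether counting used strand is not given in the sources used here, which matters most for the 12 to 18 counts of IL6 in cycling cells.

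IL11 (ENSG00000095752, chromosome 19, 55364389 to 55370463, minus strand) encodes a gp130 cytokine known for its part in fibrosis. Cycling libraries had 77.6, 74.0 and 77.8 CPM, against 54.3, 53.8 and 55.4 CPM in the senescent vehicle group at 6 h. All senescent libraries were lower, with a log2 fold change of -0.49 (edgeR adjusted p 1.56e-13, SE 0.0494). GNF-7 for 6 h gave 70.3, 65.6 and 68.2 CPM, all above vehicle and all below cycling cells (log2 fold change against vehicle 0.32, SE 0.0494, edgeR adjusted p 2.07e-07).

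At 24 h the gain in IL11 was gone. Vehicle libraries had 42.1, 42.9 and 42.1 CPM and GNF-7 libraries 38.5, 43.1 and 41.8 CPM. These groups overlapped, with a log2 fold change of -0.043 (edgeR adjusted p 0.502, SE 0.0526), and its sign turned with stricter filters. They were the lowest pair in the order, below vehicle at 6 h, GNF-7 at 6 h and cycling cells, each of which differed from its neighbour. The effect of GNF-7 differed between the times by -0.36 (SE 0.0721, edgeR adjusted p 4.43e-05). IL6 and IL11, 2 ligands of 1 family, thus moved in opposite directions in senescence, in the same direction with GNF-7 at 6 h and in the same direction with time in vehicle.

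LIF (ENSG00000128342, chromosome 22, 30240447 to 30246851, minus strand) encodes leukemia inhibitory factor, which keeps mouse stem cells undifferentiated and signals through LIFR and gp130. It was at 69.0, 71.3 and 70.2 CPM in cycling libraries and at 139.8, 139.3 and 136.9 CPM in the senescent vehicle group at 6 h. The groups lay far apart, with a log2 fold change of 0.98 (edgeR adjusted p 4.30e-20, SE 0.0524). With GNF-7 at 6 h it was at 130.8, 146.7 and 144.7 CPM, on both sides of the vehicle values (log2 fold change 0.021, SE 0.05, edgeR adjusted p 0.782).

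At 24 h LIF was at 125, 132 and 129 CPM in vehicle and at 101, 126.2 and 112 CPM with GNF-7, the widest spread of any LIF group. One GNF-7 library, replicate 2, lay within the vehicle range, and the log2 fold change was -0.19 (SE 0.0508, edgeR adjusted p 0.00147), or 1.14-fold less. With only genes of a mean of at least 5 CPM it was -0.088 (adjusted p 0.199). The difference between the GNF-7 effects at the 2 times was -0.21 (SE 0.0712, edgeR adjusted p 0.0207), and it lost its call in 7 alternatives. These were both stricter filters and leaving out replicate 2 or 3 of GNF-7 at 6 h, replicate 2 of vehicle at 24 h, or replicate 1 or 3 of GNF-7 at 24 h (-0.137 to -0.203, adjusted p 0.0509 to 0.129, the last with the 5 CPM filter). Vehicle at 24 h and 6 h had neighbouring LIF levels that did not pass the test (log2 fold change -0.11, SE 0.0503, edgeR adjusted p 0.151), although their libraries did not overlap.

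IL6ST (ENSG00000134352, chromosome 5, 55935095 to 55994993, minus strand) encodes gp130, the chain on which all these ligands converge. Cycling libraries had 371, 395 and 401 CPM and senescent vehicle libraries at 6 h 396, 355 and 388 CPM, which overlapped. The log2 fold change was -0.034 (SE 0.0413, edgeR adjusted p 0.469). It was 0.099 with total counts in place of TMM scaling (adjusted p 0.0367), where the median of all genes moved from 0.062 to 0.195, so its direction in senescence depends on the scaling.

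IL6ST was lower with GNF-7 at 24 h. Vehicle libraries had 348, 328 and 331 CPM, GNF-7 libraries 208.5, 189 and 194 CPM, with no overlap and a 1.70-fold lower level (log2 fold change -0.77, SE 0.0423, edgeR adjusted p 1.29e-21). At 6 h the GNF-7 libraries, at 371, 335 and 343 CPM, overlapped the vehicle ones, and the log2 fold change of -0.12 (edgeR adjusted p 0.018, SE 0.0414) lost its call in 7 alternatives, among them DESeq2 (-0.11, adjusted p 0.0515) and leaving out replicate 1 or 3 of vehicle or replicate 2 or 3 of GNF-7 at 6 h (-0.076 to -0.107, adjusted p 0.0795 to 0.187). Its GNF-7 effect differed between the times by -0.65 (SE 0.0591, edgeR adjusted p 6.44e-13). In vehicle IL6ST was 1.13-fold lower at 24 h than at 6 h (edgeR adjusted p 0.00128). GNF-7 at 6 h and vehicle at 24 h were neighbours that did not differ past the threshold (log2 fold change -0.059, SE 0.0415, edgeR adjusted p 0.272).

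Per kilobase of exon, IL11 and LIF changed places among the 3 ligands. Exon length here takes in every annotated exon of a gene and can exceed that of the transcript present. Comparisons of level between genes, here and for IL1B below, depend on it. In cycling cells IL11 was the most abundant, with 61.5 ± 1.0% of the summed CPM per kilobase of IL6, IL11 and LIF (SD, n = 3), and LIF had 38.0 ± 1.0%. In senescent vehicle cells at 6 h LIF had 61.1 ± 0.46% and IL11 35.7 ± 0.66%. LIF stayed the largest in all 4 senescent groups, between 55.1% and 66.4%. IL6 was the least abundant in every group, at 0.549 ± 0.052% in cycling cells and at most 5.29 ± 0.73%, in GNF-7 at 6 h.

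**Figure D2:**
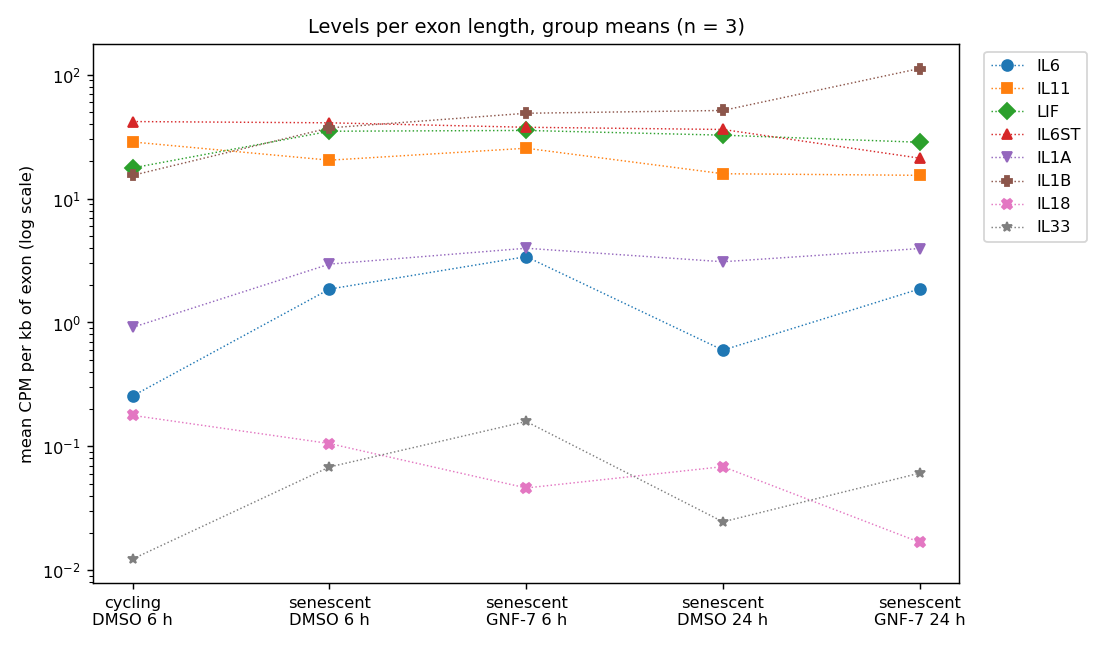
Mean CPM per kilobase of exon (log axis) of the 8 genes in the 5 groups (n = 3 each); dotted lines join the groups for 1 gene and stand for no time course. IL1B moves from 15.4 in cycling cells to 112 in GNF-7 at 24 h, and IL6 and IL1A lie below IL1B, LIF, IL11 and IL6ST in every group.

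IL1A (ENSG00000115008, chromosome 2, 112773915 to 112784590, minus strand) encodes IL-1 alpha, which is active without cleavage and can act at the cell surface. Cycling libraries had 2.09, 2.10 and 1.63 CPM and senescent vehicle libraries at 6 h 6.03, 6.44 and 6.38 CPM, a complete separation (log2 fold change 1.70, SE 0.153, edgeR adjusted p 1.88e-15). With GNF-7 for 6 h it was at 7.97, 8.775 and 8.56 CPM, above every vehicle library (log2 fold change 0.42, SE 0.125, edgeR adjusted p 0.0045). Thus the gain with GNF-7 was 1.34-fold, small beside that with senescence.

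At 24 h IL1A was at 6.955, 6.665 and 6.075 CPM in vehicle and at 9.22, 8.25 and 7.70 CPM with GNF-7. The groups did not overlap. The log2 fold change was 0.35 (SE 0.125, edgeR adjusted p 0.0132), which missed the threshold without vehicle replicate 3 (0.30, adjusted p 0.0729) or without GNF-7 replicate 1 (0.28, adjusted p 0.0925). The effects at 24 h and 6 h differed by -0.073 (SE 0.177, edgeR adjusted p 0.812). The order of levels had 3 steps: cycling, then both vehicle groups (log2 difference 0.066, SE 0.128, edgeR adjusted p 0.792), then both GNF-7 groups (-0.008, SE 0.121, edgeR adjusted p 0.967).

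IL1B (ENSG00000125538, chromosome 2, 112829751 to 112836903, minus strand) encodes IL-1 beta, made as an inactive precursor that caspase-1 cleaves, and it lies 45160 bases from IL1A. Cycling libraries had 44.8, 47.5 and 50.7 CPM and senescent vehicle libraries at 6 h 115.7, 112 and 118 CPM. All senescent libraries were above all cycling ones (log2 fold change 1.27, SE 0.0452, edgeR adjusted p 2.25e-34). GNF-7 for 6 h gave 154, 149.6 and 149.9 CPM, again with no overlap with vehicle (log2 fold change 0.39, SE 0.0415, edgeR adjusted p 4.95e-12).

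IL1B, unlike IL6, was higher in vehicle at 24 h than at 6 h, at 168, 151 and 159 CPM (log2 fold change 0.47, SE 0.0416, edgeR adjusted p 1.00e-13). With GNF-7 at 24 h it reached 336, 360.2 and 344 CPM. Each GNF-7 library was above every library of the other 4 groups. The fold change against vehicle was 2.18 (log2 1.12, SE 0.0404, edgeR adjusted p 1.08e-33), and against cycling cells it was 7.27. The effect at 24 h exceeded that at 6 h by 0.73 (SE 0.0577, edgeR adjusted p 1.50e-16). The order was cycling, vehicle 6 h, then GNF-7 6 h and vehicle 24 h together (log2 difference 0.076, SE 0.041, edgeR adjusted p 0.137), then GNF-7 24 h.

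Of the summed CPM per kilobase of IL1A and IL1B, IL1B had 92.5% to 96.6% in the group means. Its share was 94.4 ± 1.0% in cycling cells and 96.6 ± 0.38% in GNF-7 at 24 h, the highest of the 5 groups. On the same scale IL1B (15.4) was below IL11 (28.6) and IL6ST (41.8) in cycling cells and, at 112, above IL6ST (21.2) in GNF-7 at 24 h.

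**Figure D3:**
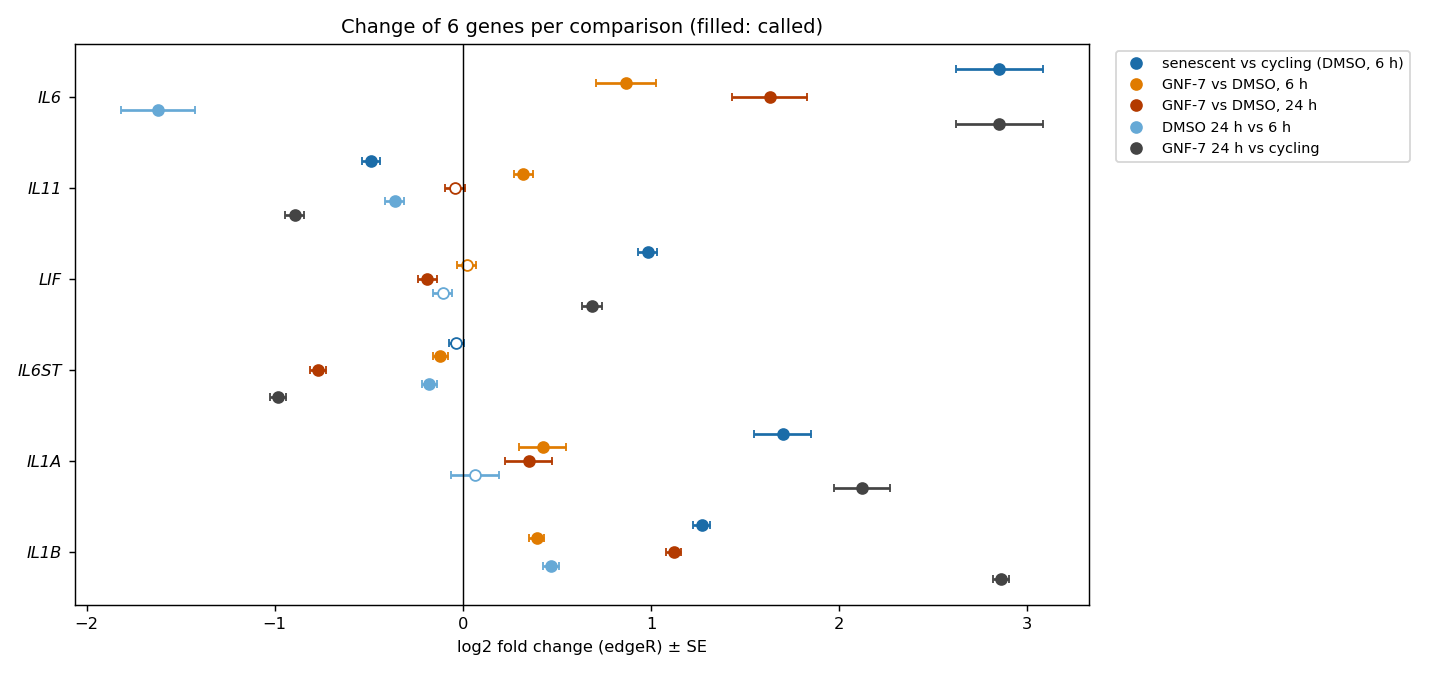
Log2 fold changes ± SE (edgeR, linear axis) of the 6 genes with enough counts in every group, for 5 comparisons; filled points were called at an adjusted p under 0.05. IL6 has the only change below -1, in vehicle with time. IL1A and IL1B lie above 0 in all 5 comparisons, all called for IL1B, while IL1A was not called in vehicle with time.

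IL18 and IL33 were too low for a dependable test. IL18 (ENSG00000150782, chromosome 11, 112143251 to 112164117, minus strand) encodes a caspase-1 substrate known for inducing interferon gamma. It had 12 to 14 counts in each cycling library, 7 to 10 in senescent vehicle at 6 h, 3 to 5 with GNF-7 at 6 h, 3 to 10 in vehicle at 24 h and 0 to 3 with GNF-7 at 24 h. A library at 0 counts allows up to 3 counts, here 0.0996 CPM. Summed over libraries, 39 counts in cycling cells stood against 25 in senescent vehicle cells, a ratio of 0.597 (95% exact counting interval 0.347 to 1.01). GNF-7 at 24 h against vehicle, 4 against 16 counts, gave 0.235 (0.0573 to 0.73). The edgeR test called neither (adjusted p 0.268 and 0.0551). It called GNF-7 at 24 h below cycling cells, from 4 against 39 counts (adjusted p 1.94e-04), in a gene that passed the filter through the cycling group.

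IL33 (ENSG00000137033, chromosome 9, 6215786 to 6257983, plus strand) encodes a nuclear alarmin released by damaged cells. Its counts were 0 to 3 per cycling library, 2 to 10 in senescent vehicle at 6 h, 13 to 18 with GNF-7 at 6 h, 1 to 3 in vehicle at 24 h and 4 to 7 with GNF-7 at 24 h. The GNF-7 libraries lay above the vehicle libraries at both times, in a gene that passed the filter through GNF-7 at 6 h. Summed counts of 47 against 20 at 6 h gave a ratio of 2.33 (95% exact counting interval 1.35 to 4.15) and 18 against 7 at 24 h a ratio of 2.42 (0.965 to 6.86). The edgeR test called neither (adjusted p 0.121 and 0.198). In senescence 20 counts stood against 3, a ratio of 6.21 (1.84 to 32.7), with an edgeR adjusted p of 0.0176 that rose to 0.0951 to 0.1 without cycling replicate 2, cycling replicate 3 or vehicle 6 h replicate 3. Intervals and floors cover counting error only and leave out the spread between libraries. They also treat reads as independent molecules, which these are not. They can therefore be too narrow, and an interval that leaves out 1 does not stand for a call.

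The effect of GNF-7 was tested for a difference between 24 h and 6 h in all 8 genes: 2 were called higher at 24 h, IL6 and IL1B, and 3 lower, IL11, LIF and IL6ST, where 12.8% and 18.0% of all genes were called. The median over the 6 well-counted genes was -0.14 against 0 over all genes.

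The gene lists that follow are read against all genes tested, of which 35.6% were called higher and 34.4% lower in senescence, 17.9% and 21.4% with GNF-7 at 6 h, and 29.3% and 29.7% with GNF-7 at 24 h. Of 6 receptor chains of the IL-6 family other than gp130, 5 were tested. Of these, 3 rose and 1 fell in senescence, and 3 fell with GNF-7 at 6 h. With GNF-7 at 24 h 1 rose and 4 fell, a median log2 fold change of -0.48 against 0.038 over all genes. LIFR, the LIF receptor, went from 22.5 ± 2.52 CPM in cycling cells to 33.15 ± 1.79 CPM in the senescent vehicle group at 6 h and was 34.3 ± 1.97 CPM in vehicle and 21.4 ± 1.51 CPM with GNF-7 at 24 h (log2 fold change -0.68, SE 0.0737, edgeR adjusted p 3.95e-12). OSMR, a related chain that binds oncostatin M with gp130, was at 250 ± 11.9 CPM in vehicle and 142 ± 5.22 CPM with GNF-7 at 24 h, 1.76-fold lower. IL6R, the chain that binds IL-6, went from 8.62 ± 0.884 to 6.33 ± 0.062 CPM with GNF-7 at 24 h (log2 fold change -0.45).

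IL11RA, the receptor of IL-11, was the chain that rose. It was at 4.59 ± 0.289 CPM in cycling cells, 11.6 ± 1.03 CPM in the senescent vehicle group at 6 h, 11.1 ± 1.81 CPM with GNF-7 at 6 h, and 11.8 ± 1.18 and 23.4 ± 3.09 CPM in vehicle and GNF-7 at 24 h. Its log2 fold change with GNF-7 was -0.059 at 6 h and 0.99 at 24 h (SE 0.102, edgeR adjusted p 1.38e-12), while IL11 itself was called at 6 h and not at 24 h. IL11RA overlaps GALT on the same strand, which had 258 to 576 counts, and its value is uncertain to that extent. Of the other 7 ligands of the family, 4 could be tested, 2 rose in senescence and 2 fell with GNF-7 at 24 h. OSM, CTF1 and IL27 had no more than 15 counts in any library.

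Among the receptors of the IL-1 family, 6 of 10 were tested, of which 3 rose and 3 fell in senescence. IL18R1, a chain of the IL-18 receptor, changed most among those tested with GNF-7 at 24 h, while IL1R1 did at 6 h. It was at 5.31 ± 0.635 CPM in vehicle and 9.15 ± 0.213 CPM with GNF-7 at 6 h, and at 3.21 ± 0.13 and 16.8 ± 0.285 CPM at 24 h (log2 fold change 2.38, SE 0.125, edgeR adjusted p 1.93e-25). Its ligand IL18 had 0 to 3 counts in those GNF-7 libraries, and IL18RAP, its partner chain, had no more than 15 counts in any library. IL1RL1, the IL-33 receptor, had no more than 19 counts and overlaps IL18R1 on the same strand. IL1R1 was at 2.60 ± 0.311 CPM in vehicle and 4.99 ± 0.789 CPM with GNF-7 at 6 h (log2 fold change 0.94, SE 0.183, edgeR adjusted p 2.24e-05), and at 3.145 ± 0.788 and 3.04 ± 0.205 CPM at 24 h. IL1RAP was lower in senescent than in cycling cells, at 48.0 ± 2.79 against 66.2 ± 0.418 CPM, and the decoy receptor IL1R2 was at 0.354 ± 0.0541 CPM or less in vehicle.

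The antagonists were low or uncertain. IL1RN, which blocks IL1R1, was at 0.0787 ± 0.103 CPM in cycling cells and at most 0.373 ± 0.177 CPM, in GNF-7 at 24 h, from 0 to 17 counts a library. IL18BP, which binds IL-18, went from 3.86 ± 0.39 to 9.12 ± 0.66 CPM in senescence and was not called with GNF-7 at either time. It overlaps NUMA1 on the other strand, which had 6174 to 9168 counts. IL36B, an IL-1 family cytokine that lies in the same cluster of 9 genes on chromosome 2 as IL1A and IL1B, followed the order of IL1B: 0.222 ± 0.0576 CPM in cycling cells, 5.80 ± 0.579 in vehicle and 9.16 ± 0.708 with GNF-7 at 6 h, and 9.52 ± 0.739 and 19.5 ± 0.244 at 24 h. Its log2 fold change was 4.66 in senescence (SE 0.223, edgeR adjusted p 8.81e-28) and 1.03 with GNF-7 at 24 h (SE 0.105). IL36A, IL36RN, IL37 and IL1F10 of the cluster were too low to test, with at most 12 counts.

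Of 15 genes tested for the maturation and release of IL-1 family cytokines, 5 rose and 5 fell in senescence, 33.3% each way and close to the shares over all genes. With GNF-7, 5 rose and 2 fell at 6 h (33.3% and 13.3%), and 8 rose and 6 fell at 24 h (53.3% and 40%). The 5 rises in senescence were 8 with total counts or the 5 CPM filter, and the 6 falls at 24 h were 3 with that filter. CASP1, which cleaves IL-1 beta and IL-18, went from 3.45 ± 0.202 to 7.29 ± 0.646 CPM in senescence and was at 10.0 ± 0.142 CPM with GNF-7 at 6 h and at 6.74 ± 0.922 and 12.6 ± 1.21 CPM in vehicle and GNF-7 at 24 h (log2 fold change 0.90, SE 0.117, edgeR adjusted p 9.88e-10). NLRP1, an inflammasome sensor, was at 76.1 ± 1.6 CPM in cycling cells, 148 ± 7.91 in senescent vehicle cells at 6 h and 209 ± 9.09 CPM with GNF-7 at 24 h. NLRP3, another sensor, went the other way in senescence, from 21.4 ± 0.975 to 8.35 ± 0.891 CPM, and PYCARD, the adaptor between sensors and caspase-1, had no more than 1 count in any library. PANX1, a membrane channel, was 38.7 ± 1.98 CPM in vehicle and 17.6 ± 1.71 CPM with GNF-7 at 24 h.

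The signal transducers downstream of the IL-1 receptors gave 7 rises and 5 falls among 15 tested in senescence, 46.7% and 33.3%, and 3 rises and 3 falls with GNF-7 at 24 h, 20% each, both below the shares over all genes (5 and 6 rises with the filters at 1 and 5 CPM). IRAK2 was at 19.1 ± 1.46 CPM in cycling cells, 52.0 ± 1.1 CPM in the senescent vehicle group at 6 h, and 35.5 ± 0.182 and 19.8 ± 0.873 CPM in vehicle and GNF-7 at 24 h. MYD88 was at 0.187 ± 0.106 CPM in cycling cells, against 0.855 ± 0.207 CPM in the senescent vehicle group at 6 h, a low level for the adaptor shared by these receptors.

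Among 11 NF-kB and C/EBP factors tested, 6 rose and 4 fell in senescence (54.5% and 36.4%), 5 rose and 6 were not called with GNF-7 at 6 h (45.5% higher), and 4 rose and 5 fell with GNF-7 at 24 h (36.4% and 45.5%). CEBPB, a factor known to act on IL6, was at 51.6 ± 4.65 CPM in cycling cells, 100.9 ± 5.57 in vehicle and 288 ± 25.9 with GNF-7 at 6 h, and 82.8 ± 8.14 and 226 ± 15.2 at 24 h (log2 fold change with GNF-7 1.51 and 1.45, edgeR adjusted p 6.04e-08 and 4.27e-08). CEBPG, a partner of CEBPB, had log2 fold changes with GNF-7 of 2.03 and 2.26. RELB rose from 39.7 ± 2.02 to 54.6 ± 2.47 CPM with GNF-7 at 6 h and was at 23.6 ± 0.971 and 22.6 ± 0.349 CPM at 24 h, and NFKB1 fell from 99.7 ± 5.13 to 47.3 ± 1.21 CPM in senescence.

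Of 13 NF-kB feedback and target genes tested, 10 rose and 1 fell in senescence, or 76.9% and 7.69% against 35.6% and 34.4% of all genes. With GNF-7 at 24 h, 2 rose and 9 fell, or 15.4% and 69.2% against 29.3% and 29.7%. The median log2 fold changes were 0.52 and -0.32 against 0.062 and 0.038 over all genes. The genes that rose with GNF-7 were TNIP2 (log2 fold change 0.26) and ICAM1, an adhesion molecule, which went from 9.64 ± 0.673 to 12.3 ± 2.06 CPM, and 4 rose with total counts or with either stricter filter. In vehicle, 8 of the 13 also fell from 6 h to 24 h and none rose, where 9.29% of all genes fell. SOD2 was at 64.8 ± 2.3 CPM in cycling cells, 248 ± 10.5 in vehicle at 6 h, and 163 ± 3.89 and 139.8 ± 5.59 in vehicle and GNF-7 at 24 h. It overlaps WTAP on the other strand, which had 1949 to 3246 counts, and its value is uncertain to that extent. BIRC3 had a log2 fold change of -1.42 with GNF-7 at 24 h, and NFKBIA, the inhibitor of NF-kB, one of -1.07. IL6 and IL1B were higher with GNF-7 at that time, as given above.

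The JAK and STAT genes and their inhibitors gave 5 rises and 5 falls among 14 tested in senescence, 35.7% each and close to the shares over all genes. With GNF-7 at 24 h they gave 3 rises and 8 falls (21.4% and 57.1%), with 5 falls without vehicle 24 h replicate 1 and 3 with the 5 CPM filter. Of 10 STAT3 target genes tested, some of which also stand in the other lists, 6 rose and 3 fell in senescence (60% and 30%) and 1 rose and 8 fell with GNF-7 at 24 h (10% and 80%), a median of -0.40 against 0.038 over all genes. MUC1 was among those that fell, from 17.45 ± 0.419 CPM in vehicle to 9.19 ± 0.899 CPM. Among 13 regulators of cytokine mRNA decay and stability, 4 rose and 7 fell in senescence (30.8% and 53.8%), and 7 fell (53.8%) and 6 were not called with GNF-7 at 24 h, where 3 rose with total counts or either stricter filter and 1 with a replicate block. ZFP36L1, a protein that promotes decay of AU-rich messages, went from 254 ± 5.99 to 124 ± 2.15 CPM with GNF-7 at 24 h (log2 fold change -1.04, SE 0.0375, edgeR adjusted p 1.35e-33), and HNRNPD, another AU-rich binding protein, from 622 ± 15.2 to 196 ± 8.55 CPM in senescence. ZC3H12A, a ribonuclease that cleaves IL6 mRNA, went from 9.91 ± 1.03 to 23.0 ± 0.368 CPM in senescence and was not called with GNF-7. In the cGAS and STING arm, 2 of 6 tested rose and 3 fell in senescence, with CGAS, the DNA sensor, at 11.8 ± 0.483 and then 3.68 ± 0.209 CPM, and IFNB1 was too low to test. The other counts given for these lists that moved by over 1.5 times under an alternative were of 3 or fewer genes and moved by 1 or 2 genes. A part of any of these genes in the changes of the interleukins was not tested.

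**Figure D4:**
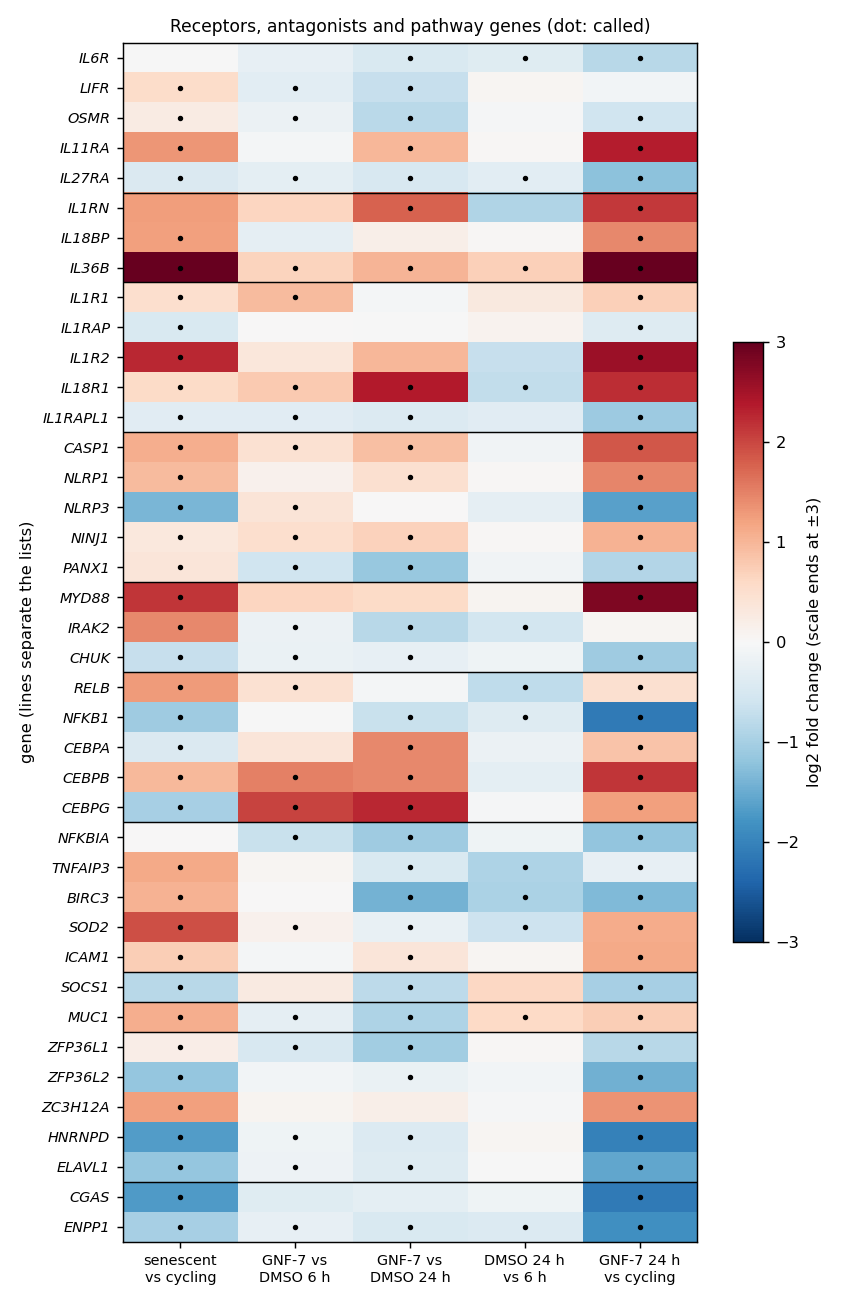
Log2 fold changes (edgeR, colour scale ending at ±3) of the receptors, antagonists and pathway genes named by rule, for 5 comparisons; dots mark calls and lines separate the lists. IL18R1, CEBPB and CEBPG are red in both GNF-7 columns, while OSMR, LIFR, PANX1, NFKBIA and ZFP36L1 are blue.

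Genes whose levels followed each member most closely were found by Pearson r over the 15 libraries (5 groups) on log2 CPM, as a description. For IL6 these were FHOD3 (0.99), SCG5 (0.98) and JAK1 (0.97). JAK1 is a kinase bound to gp130. Pearson r does not measure the size of a change. From cycling cells to GNF-7 at 6 h, JAK1 went from 159 to 200 CPM and IL6 from 0.529 to 7.03 CPM. For IL1B they were RTN1 (0.99), MYOSLID (0.99) and BCAN-AS1 (0.99), for IL6ST CHST11, PVR and CALD1 (each 0.99), for LIF ARFGAP1, TCF25 and PLXNB2 (each 0.98), and for IL11 BMI1 (0.97), WWC1 (0.97) and MYO10 (0.96). For IL1A they were ZNF841 and LACC1 (each 0.99) and a gene without a symbol. Among the members, IL1A and LIF (0.88) and IL1A and IL1B (0.87) were the most alike, and IL6ST and IL1B (-0.82) the most opposed. These points share 5 group means, so groups rather than single libraries set the values.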

How the data were processed

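The authors deposited 1 table of raw read counts per Ensembl gene, without normalization, for 15 libraries. Per the labels' protocols RNA came from cell pellets and libraries from a stranded mRNA kit. The submitters' processing notes list bcl2fastq 2.20.0.422, STAR 2.7.9a, featureCounts 1.5.1 and GRCh38. The annotation release and strand setting are not given in the sources used here, and coordinates and exon lengths are from GENCODE 29.

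Of 60673 rows, 3 that held 1 broken entry were left out. Counts were tested with edgeR 4.0.16 in R 4.3.3 (quasi-likelihood, robust, TMM, filterByExpr, 18563 genes, biological coefficient of variation 4.64%) in 1 fit of the 5 groups. P-values were adjusted over all genes, with calls at an adjusted p under 0.05. CPM is TMM-scaled.

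The 8 members, the 12 gene lists (133 genes, 111 tested) and the rules were chosen with earlier results of these data known. Genes named are the members, TERF2, CDKN1A, MKI67, 13 receptors, antagonists and a processing enzyme, for each list and comparison up to 4 called genes with an absolute log2 fold change of at least 1 and at least 1 CPM in a group, and the 3 genes most like each member. Some genes that the rule admits are not described, and genes too low to test were named in addition. Alternatives were RLE and total-count scaling, mitochondrial genes left out, no filter, filters at a mean of 1 and 5 CPM, DESeq2 1.42.0, limma 3.58.1 (voom), only the groups compared, a replicate block and leaving out each library. Same-numbered libraries deviated together (correlations of 0.11 to 0.154) between vehicle and GNF-7 at 24 h, and by 0.126 to 0.254 between GNF-7 at 6 h and 24 h. Every such pair was best with its own number, so by this hint from the data, not from the labels, the numbers may pair those groups. GNF-7 at 6 h and vehicle at 24 h were also best with their own number in all 3 pairs, with correlations of 0.0509 to 0.175. Of all pairs, 13 of 18 between senescent groups and 0 of 12 with cycling cells were best with their own number, and in the other pairs of groups some correlations were at or below 0.1. The code was tested on simulated data in which a small share of genes changed, as many up as down. It was not tested under changes as wide as those found here.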

Additional observations from a re-analysis of the deposited data

Results flagged for a closer look

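The effect of GNF-7 against vehicle differed between 24 h and 6 h for 5 of the 8 genes, by edgeR's test of the difference itself. Over all genes tested, 12.8% were called higher and 18.0% lower. The difference in log2 fold change, 24 h minus 6 h, was 0.761 for IL6, whose fold change rose from 1.82 to 3.09, and 0.732 for IL1B, whose fold change rose from 1.31 to 2.18. It was -0.65 for IL6ST, -0.364 for IL11 and -0.21 for LIF. IL11 was above vehicle at 6 h and level with it at 24 h, and IL6ST was far below vehicle at 24 h. The differences of LIF and IL6 were the least stable of the 5, as given in the report.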

How the results depend on the processing

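Of 774 values of the 8 genes under alternatives, 725 kept direction and side of the threshold, 26 lost a call, 6 gained one and 17 changed sign. A stricter filter at 5 CPM tests 5 of the 8 genes. It called 3 for GNF-7 at 6 h, 3 at 24 h and 3 for the difference between times. For GNF-7 at 24 h against cycling cells it called 5. The main fit called 5, 5, 5 and 8. Over all genes, this filter called 6042, 8142, 5120 and 9815 of 11234, and the main fit 7286, 10940, 5723 and 14903 of 18563. Signs turned in values near 0. IL6ST in senescence was 0.099 with total counts, 0.033 and 0.117 with the filters at 1 and 5 CPM (adjusted p 0.00798 for the latter), 0.025 with only the groups compared and -0.072 to 0.009 over single libraries left out, positive without vehicle 6 h replicate 2. LIF with GNF-7 at 6 h was -0.002 to 0.069 over libraries left out, negative without GNF-7 replicate 3, and up to 0.074 under the other settings. IL11 with GNF-7 at 24 h was 0.005 and 0.058 with the 2 filters and -0.079 to 0.0 over libraries left out, the last without GNF-7 replicate 1. IL1A in vehicle with time was -0.045 with total counts. The time difference of IL33 was -0.236 with voom and -0.419 to 0.457 over libraries left out, negative for 6 of them. TNFAIP3 from cycling cells to GNF-7 at 24 h was 0.023 with the 5 CPM filter. Of 3045 values of other genes 124 lost a call. LIF in vehicle with time was called with total counts (-0.217) and with only the groups compared. IL18 with GNF-7 at 24 h was called with voom and without vehicle replicate 2 or GNF-7 replicate 1. IL33 with GNF-7 at 6 h, the group through which it passed the filter, was called with voom (1.39, adjusted p 0.044). IL33 at GNF-7 24 h against cycling cells lost its call without any of 4 libraries (1.73 to 2.21). The causes were not tested. Total counts moved the median of all genes in senescence from 0.062 to 0.195.

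With a replicate block, the counts of members called were 6, 5, 5, 5, 4 and 8, as without it. Their order is senescence, GNF-7 at 6 h, at 24 h, the time difference, vehicle with time and GNF-7 24 h against cycling. In the same order, 13032, 7481, 11031, 5921, 3711 and 14954 of all 18563 genes were called with the block. The 6 include IL33 and the 8 include IL18 and IL33, which passed the filter through 1 group each. For GNF-7 at 24 h, where the numbers may pair the libraries, the block changed 1 of 67 values, the count of mRNA decay regulators called higher (1 against 0), and no call of a named gene. The numbers may also pair GNF-7 at 6 h with GNF-7 at 24 h, and the time difference uses both groups. It uses vehicle at 6 h as well, for which not every library was best with its own number. That holds for the remaining comparisons too. Depth limits IL18 and IL33, with 0 to 18 counts a library.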
